A study of Mus musculus with 6 samples.

Results

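The 37 genes encoded on the mitochondrial chromosome were examined in splenic naive CD8 T cells of mice with and without LAIR-1. Members were chosen by position alone: they were the rows of the count table that carry the mitochondrial chromosome in their name, 37 of 14515 gene rows. They comprised 13 protein-coding genes, 2 ribosomal RNA (rRNA) genes and 22 transfer RNA (tRNA) genes. Of the protein-coding genes, 7 encode subunits of respiratory complex I, 1 of complex III, 3 of complex IV and 2 of complex V. LAIR-1, encoded by Lair1, is an inhibitory collagen receptor of leukocytes. The study had 3 wild type (Lair1+/+) and 3 LAIR-1-deficient (Lair1-/-) mice with 1 library each, and the labels name no treatment. The construction of the Lair1 allele, the strain, the age and the sex of the mice are not given in the labels or other sources used here, and the deficiency is not described as limited to T cells. From each spleen 100000 cells were sorted on surface proteins that included CD45, CD3 and CD8 and on absence of CD44, and libraries were made from total RNA with small RNA primers.

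As background, the mitochondrial genome is a compact circle that is transcribed from both strands into long precursors by the polymerase POLRMT with its factors TFAM and TFB2M. The tRNAs lie between most of the larger genes, and their excision by RNase P and ELAC2 releases most rRNAs and messenger RNAs. Most of these RNAs, though not all, are polyadenylated by MTPAP. The encoded proteins are core, membrane-embedded subunits of the oxidative phosphorylation complexes, which they build together with subunits encoded in the nucleus. Naive T cells are quiescent and draw much of their energy from oxidative phosphorylation.

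Counts assigned to genes summed to between 7974206 and 9187017 in the wild type libraries and between 5519748 and 7296424 in the LAIR-1-deficient libraries, and each LAIR-1-deficient library was shallower than each wild type library. Lair1 had 58, 32 and 43 counts across wild type mice 1 to 3 and 2, 1 and 1 across LAIR-1-deficient mice 1 to 3. Its log2 fold change was -4.58 (SE 0.57), with an adjusted p of 0.00255 in edgeR's quasi-likelihood test. The labelled cell type was checked with 8 T cell genes, Cd8a, Cd8b1, Cd3d, Cd3e, Cd3g, Ccr7, Lef1 and Tcf7. Their CPM, counts scaled by edgeR to a common library size, summed to between 7028 and 7425 in wild type cells and between 6897 and 7600 in LAIR-1-deficient libraries. B cell markers summed to between 25.2 and 32.5 CPM over all libraries, macrophage markers to between 5.38 and 8.19 CPM, and Cd4 to between 0 and 2.46 CPM. Erythroid genes, nearly all from a beta globin row, ranged from 34.3 to 168 CPM in wild type cells and from 26.8 to 141 CPM in LAIR-1-deficient libraries. Dendritic cell markers were between 0.630 and 1.12 CPM in wild type cells and at 0 in the LAIR-1-deficient libraries. None of these markers had more than 10 counts in a library, so the 0 does not show that such cells were absent. NK cell markers ranged from 38.2 to 58.6 CPM, nearly all from Eomes, which CD8 T cells can also express; Ncr1 was at 0 in 5 libraries. Neutrophil markers ranged from 0.137 to 4.46 CPM and platelet markers from 0.355 to 2.39 CPM. The part of these cells in the values below was not tested.

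All 37 members matched a gene of GENCODE vM21 on the mouse assembly GRCm38, where 28 lie on the plus strand and 9 on the minus strand. The minus strand holds mt-Nd6 and 8 tRNA genes. Several members share bases, which matters because the counts assign reads to genes and how shared reads were assigned is not given in the sources used. The longest shared stretch is that of mt-Atp8 and mt-Atp6, 43 bases at chrM:7927-7969. The genes mt-Nd4l and mt-Nd4 share 7 bases at chrM:10167-10173, and mt-Nd5 lies opposite mt-Nd6 over 14 bases at chrM:13552-13565. The plus strand ends of the upstream genes are shown 5′ to 3′ from the GENCODE vM21 transcripts, with the shared bases in capitals.
mt-Atp8, chrM:7880-7969: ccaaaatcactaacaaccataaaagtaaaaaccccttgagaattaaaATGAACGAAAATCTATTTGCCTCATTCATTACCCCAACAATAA
mt-Nd4l, chrM:10114-10173: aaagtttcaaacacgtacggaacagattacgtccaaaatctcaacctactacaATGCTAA
mt-Nd5, chrM:13506-13565: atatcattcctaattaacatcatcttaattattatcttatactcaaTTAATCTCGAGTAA

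In mt-Atp8 and mt-Nd4l the capitals begin with the ATG start codon of the gene that follows, so a fragment across them belongs to both reading frames. In mt-Nd5 the capitals are the bases opposite mt-Nd6, and whether counting used strand is not given in the sources used, so sense and antisense reads there cannot be told apart. The other overlaps between members were of 1 to 3 bases. In mt-Co3, mt-Nd4 and mt-Cytb the annotation ends 1 base past the last whole codon with no stop codon. Such a final T is completed to a stop codon by the poly(A) tail, which makes these ends an example of how processing and coding meet in this genome. The last bases are shown with the base past the last codon in capitals.
mt-Co3, chrM:9331-9390: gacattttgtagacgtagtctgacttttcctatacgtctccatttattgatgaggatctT
mt-Nd4, chrM:11485-11544: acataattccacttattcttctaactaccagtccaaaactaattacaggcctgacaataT
mt-Cytb, chrM:15229-15288: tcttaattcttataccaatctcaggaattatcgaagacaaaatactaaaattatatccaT

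The first base after mt-Co3 opens mt-Tg, and the first after mt-Cytb opens mt-Tt. The tRNAs that held most tRNA counts were mt-Tm, mt-Tw and mt-Tt, the methionine, tryptophan and threonine tRNAs. Their sequences are shown with the anticodon in capitals, at positions 31 to 33 of mt-Tm and mt-Tt and 32 to 34 of mt-Tw, counted from the 5′ end.
mt-Tm, chrM:3845-3913: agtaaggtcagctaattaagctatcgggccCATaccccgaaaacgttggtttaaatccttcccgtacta
mt-Tw, chrM:4950-5016: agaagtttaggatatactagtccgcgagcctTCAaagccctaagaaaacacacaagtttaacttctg
mt-Tt, chrM:15289-15355: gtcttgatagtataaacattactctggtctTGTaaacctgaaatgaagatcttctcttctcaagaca

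A further limit of these counts lies in the nucleus, which carries copies of mitochondrial sequence. By a BLAST search of the GENCODE transcripts, 11 members had an annotated nuclear copy of at least 90% identity over at least 50 bases. For 7 of them the identity was at least 99%. A block of pseudogenes on chromosome 1 held copies of mt-Atp6 (Gm10925, 100% over 678 bases), mt-Co2 (Gm28661, 100% over 681 bases), mt-Co3 (Gm28437, 100% over 783 bases) and mt-Nd4 (Gm28439, 100% over 876 bases). The same block held copies of mt-Nd4l, mt-Nd3 and part of mt-Co1. For mt-Nd2 the copy, Gm13339 on chromosome 2, matched at 96.7% over 510 bases. Of the 17 copies found, 0 appear by that name in the count table. Within stretches of 100% identity, reads from a copy and from the mitochondrial gene cannot be told apart by sequence. For copies of lower identity, such as that of mt-Nd2, how far reads were told apart was not tested.

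Mitochondrially encoded genes held a large part of all counts in every library. Their share was 17.2%, 19.3% and 21.1% of gene counts across wild type mice 1 to 3 and 15.6%, 19.2% and 19.2% across LAIR-1-deficient mice 1 to 3. The groups overlapped, with mouse 1 at the bottom of each. The mean was 19.2% ± 1.96 (SD, n = 3) in wild type cells and 18.0% ± 2.11 (SD, n = 3) in LAIR-1-deficient mice, a difference of -1.22 percentage points (two-sided exact permutation test, p = 0.5). Wilson 95% intervals of these shares reached at most 0.0329 points to either side and cover counting error only. The difference ranged from -2.22 points without wild type mouse 1 to -0.0037 points without LAIR-1-deficient mouse 1, and it was -0.270 points when wild type mouse 3 was left out. In bulk samples such as these, fewer cells of a type and less RNA per cell cannot be told apart.

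The share was nearly all messenger and ribosomal RNA. Protein-coding members held 15.7% ± 1.17 of gene counts in wild type cells and 14.6% ± 1.79 in LAIR-1-deficient libraries (SD, n = 3 each; exact permutation p = 0.5). Leaving out single mice moved that difference of -1.08 points to between -1.84 points, without LAIR-1-deficient mouse 3, and -0.0891 points, without LAIR-1-deficient mouse 1. The rRNAs held 3.50% ± 0.944 and 3.36% ± 0.663 (exact permutation p = 0.8). The tRNAs held 0.00476% ± 0.000269 and 0.00481% ± 0.000336 (exact permutation p = 1). With 3 mice against 3 the smallest p this test can give is 0.1, and adjusted over the 4 shares every p was 1. Within the mitochondrial counts, messenger RNA made up between 78.3% and 84.1% and rRNA between 15.9% and 21.7% across the 6 libraries.

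**Figure D1:**
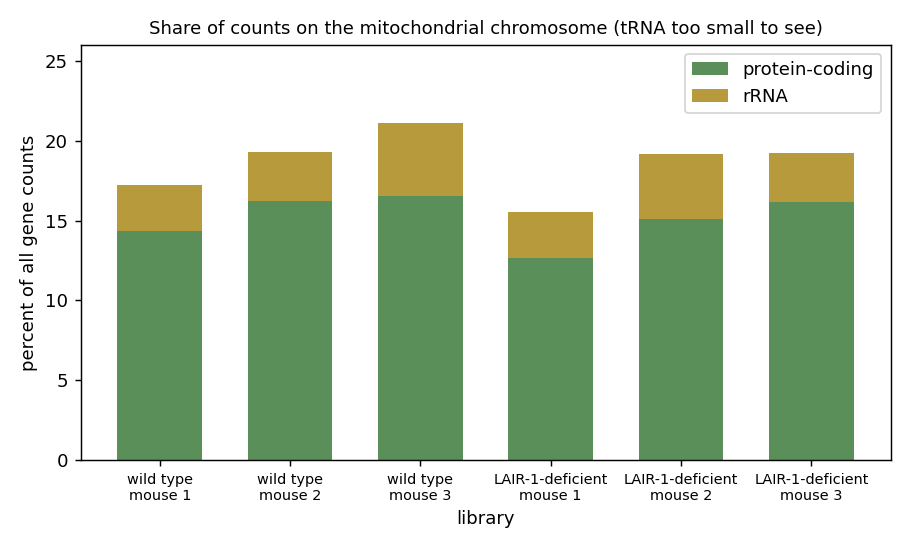
Each bar is 1 library, and its height is the percent of all gene counts assigned to the mitochondrial chromosome, divided into protein-coding genes (green) and rRNA genes (gold); tRNA counts are too few to see. Bars range from 15.6% to 21.1%, and the 2 genotypes overlap.

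Levels were compared between members as CPM per kilobase of annotated gene, averaged over the 6 libraries. This scale takes counts to grow with gene length. Whether they do was not tested, and the counter and the use of molecular identifiers are not given. The order below is one of counts per length and need not be that of RNA molecules. Highest on this scale was mt-Atp6, a subunit of the proton channel of ATP synthase (complex V), at 55408 CPM per kilobase. Next came mt-Co2, the complex IV subunit that receives electrons from cytochrome c, at 31537, and mt-Cytb, the cytochrome b of complex III, at 22148 CPM per kilobase. The order went on with mt-Nd3 at 18462, mt-Rnr2 at 14963, mt-Rnr1 at 11097, mt-Co1 at 10557, mt-Nd1 at 10321 and mt-Nd2 at 10244 CPM per kilobase. Below these were mt-Co3 at 7636, mt-Nd4 at 7392, mt-Atp8 at 4277, mt-Nd4l at 3917 and mt-Nd5 at 2994 CPM per kilobase. The minus strand messenger RNA, mt-Nd6, stood at 17.1 CPM per kilobase, below the tRNAs mt-Tm at 292, mt-Tw at 178 and mt-Tt at 83.9. Among rRNA and messenger RNA neighbours in this order, 5 steps separated the ranges of the 6 libraries. These were mt-Atp6 over mt-Co2, mt-Co2 over mt-Cytb, mt-Nd2 over mt-Co3, mt-Nd4 over mt-Atp8, and mt-Nd5 over mt-Nd6, where the ratio of means was 175. All other neighbours among these 15 genes overlapped in range. Of the 10 most abundant rows of the whole table by CPM, 8 were mitochondrially encoded.

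**Figure D2:**
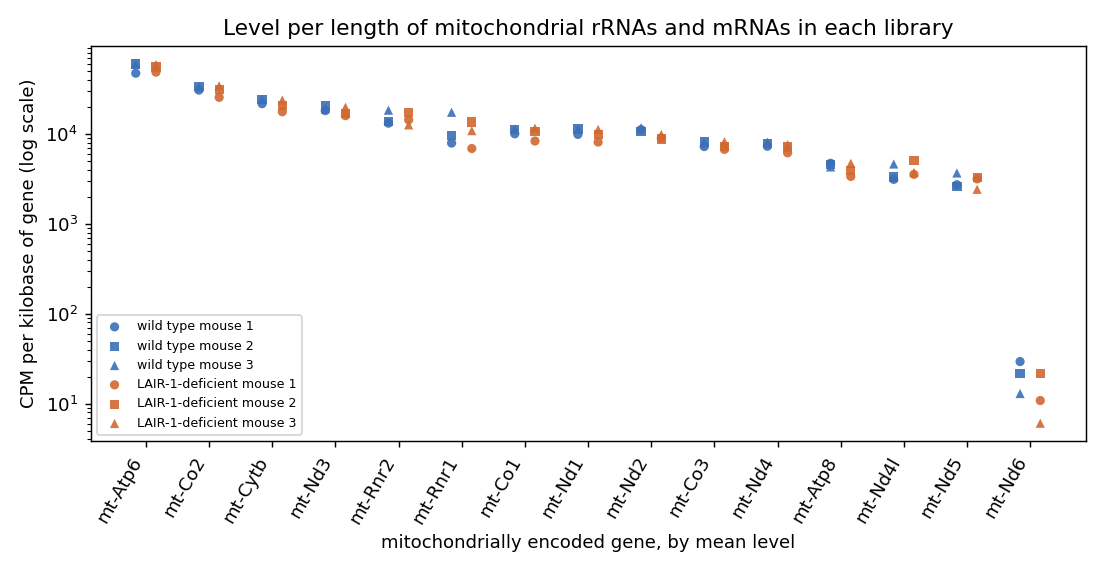
Each point is 1 library; the vertical log axis gives CPM per kilobase and the horizontal axis lists the 13 messenger RNAs and 2 rRNAs by mean level, wild type in blue and LAIR-1-deficient in orange. Levels run from 55408 CPM per kilobase on average for mt-Atp6 down to 17.1 for mt-Nd6, and blue and orange points of most genes intermix.

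Counts per kilobase differed between reading frames that share a messenger RNA, so they do not measure RNA level alone. The ratio of mt-Atp6 to mt-Atp8 per kilobase was 10.1, 13.1 and 14.0 across wild type mice 1 to 3 and 14.5, 14.3 and 12.6 across LAIR-1-deficient mice 1 to 3 (exact permutation p = 0.5). These 2 reading frames are known to lie on a shared messenger RNA. With the 43 shared bases left out of its length, mt-Atp8 would stand at 5419 in place of 4277 CPM per kilobase. The ratio of mt-Nd4 to mt-Nd4l per kilobase, a second pair known to share a messenger RNA, was 2.33, 2.38 and 1.75 in wild type cells and 1.74, 1.41 and 2.04 in LAIR-1-deficient libraries (exact permutation p = 0.2). The genotypes overlapped in both ratios.

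Between genotypes, 0 of 21 tested members passed an adjusted p of 0.05 in edgeR's quasi-likelihood test, beside 1 of 9565 genes tested (0.0105%), which was Lair1. Members entered the test when they passed a filter on low counts, which kept the 13 messenger RNAs, the 2 rRNAs and 6 of the 22 tRNAs. For each tested member the edgeR adjusted p was 0.9999. At an unadjusted p under 0.05, 1 member was lower in LAIR-1-deficient cells, mt-Nd2, beside 1.44% of all genes tested. DESeq2 and limma-voom also called 0 members, with 2 and 1 lower at an unadjusted p under 0.05, beside 2.27% and 3.23% of all genes in either direction; in edgeR that share was 3.25%. Leaving out LAIR-1-deficient mouse 3 put 6 members lower at an unadjusted p under 0.05, beside 4.51% of all genes in either direction. Leaving out LAIR-1-deficient mouse 2 put 2 lower, beside 3.26%. When wild type mouse 3 was left out, 2 were lower and mt-Nd4l higher, beside 3.64% of all genes, and leaving out LAIR-1-deficient mouse 1 put mt-Nd2 lower and mt-Tw higher, beside 4.79%.

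The log2 fold changes of LAIR-1-deficient over wild type were below 0 for 17 tested members and above 0 for 4, with a median of -0.11 beside 0.00059 over all genes tested. Among the messenger RNAs 12 were below 0 and mt-Nd4l was above it, with a median of -0.13. Both rRNAs were below 0, and the tRNAs divided into 3 and 3 with a median of 0.09. The members share a genome and its precursor transcripts, so they are not independent of each other. The median was -0.20 without LAIR-1-deficient mouse 3 and -0.04 without LAIR-1-deficient mouse 1. The groups did not overlap, with LAIR-1-deficient lower, for 2 tested members (9.52%), mt-Nd2 and mt-Tt, beside 4.08% of all genes tested. No tested member lay higher in all LAIR-1-deficient libraries, beside 4.3% of all genes tested.

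**Figure D3:**
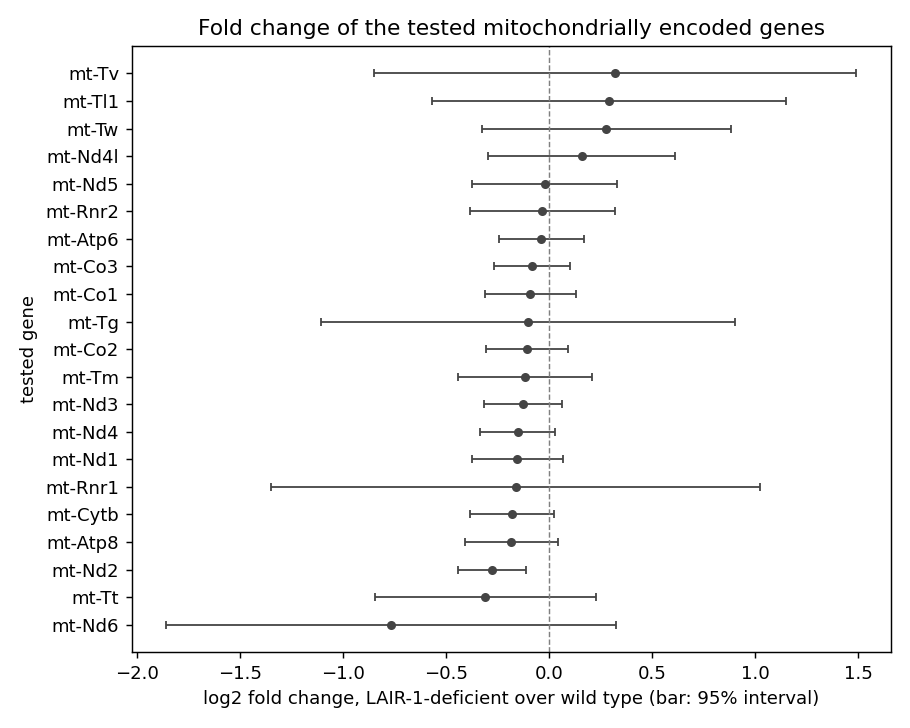
Each point is the log2 fold change of a tested member, LAIR-1-deficient over wild type, with its 95% interval from edgeR as a bar; the dashed line marks 0. The interval of mt-Nd2 alone lies wholly below 0 before adjustment, and those of mt-Rnr1, mt-Nd6 and the scarce tRNAs are wide.

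Complex I is the entry point of electrons from NADH, and its 7 mitochondrially encoded subunits form the core of its proton-pumping arm. The subunit mt-Nd2 had 11638, 11121 and 12206 CPM across wild type mice 1 to 3 and 9390, 9169 and 10273 CPM across LAIR-1-deficient mice 1 to 3. All LAIR-1-deficient values lay below all wild type values. The means were 11655 ± 543 and 9611 ± 584 CPM (SD, n = 3 each), for a log2 fold change of -0.28 (SE 0.08, 95% interval -0.44 to -0.11). Its unadjusted p in edgeR was 0.00243, the 11th smallest among the genes tested, and its adjusted p was 0.9999. Within groups its SD of log2 CPM was 0.077, rank 104 from the most variable among 126 tested genes of at least 1000 CPM. The median SD of those genes was 0.11. A small SD is part of what makes the p above small, so it is not separate support for a difference.

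The neighbouring subunit mt-Nd1 had 9494, 10903 and 10823 CPM in wild type cells and 7797, 9461 and 10782 CPM in LAIR-1-deficient libraries, a log2 fold change of -0.15. Here the third LAIR-1-deficient library lay inside the wild type range. The ratio of mt-Nd2 to mt-Nd1 per kilobase overlapped between genotypes, at 1.04 ± 0.095 and 0.961 ± 0.130 (SD, n = 3 each; exact permutation p = 0.5). The subunit mt-Nd4 had 10082, 10901 and 11188 CPM in wild type cells and 8524, 9907 and 10518 CPM in LAIR-1-deficient libraries, a log2 fold change of -0.15. For mt-Nd3 the values were 6351, 7139 and 6639 against 5582, 5913 and 6924 CPM, a log2 fold change of -0.13. In both the groups overlapped through LAIR-1-deficient mouse 3.

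The remaining complex I subunits followed other orders of libraries. For mt-Nd4l the values were 931, 988 and 1380 CPM in wild type cells and 1057, 1512 and 1111 CPM in LAIR-1-deficient libraries, a log2 fold change of 0.16. For mt-Nd5 they were 4977, 4798 and 6734 against 5783, 6046 and 4431 CPM, a log2 fold change of -0.02. Wild type mouse 3 was the highest wild type library in both, and LAIR-1-deficient mouse 2 the highest of its group. The minus strand subunit mt-Nd6 was scarce, with 121, 103 and 60 counts in wild type cells and 39, 63 and 23 counts in LAIR-1-deficient libraries. That is 15.2, 11.3 and 6.72 CPM against 5.61, 11.2 and 3.14 CPM, overlapping through wild type mouse 3, with a log2 fold change of -0.77 (SE 0.47, 95% interval -1.86 to 0.32). That value ranged from -1.34 without LAIR-1-deficient mouse 2 (unadjusted p = 0.00296 in edgeR, adjusted p = 0.9998) to -0.42 without LAIR-1-deficient mouse 3. The ratio of mt-Nd5 to mt-Nd6 per kilobase spanned 92.9 to 401 over the 6 libraries (exact permutation p = 0.2 between genotypes). Summed over its 7 members, complex I had 46109 ± 2753 CPM in wild type cells and 41400 ± 2999 CPM in LAIR-1-deficient libraries, 89.8% of wild type (SD, n = 3 each; exact permutation p = 0.2, 0.7 adjusted over 7 sums).

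Complex III contains a mitochondrially encoded subunit, mt-Cytb, which carries the sites of ubiquinol oxidation. It had 24950, 28035 and 27727 CPM across wild type mice 1 to 3 and 20286, 23625 and 27401 CPM across LAIR-1-deficient mice 1 to 3. The groups overlapped through LAIR-1-deficient mouse 3, while the other LAIR-1-deficient libraries were below all wild type libraries. The log2 fold change was -0.18 (SE 0.10, 95% interval -0.38 to 0.03), and the exact permutation p of the CPM was 0.2 (0.7 adjusted over 7 sums).

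Complex IV, cytochrome c oxidase, passes electrons to oxygen, and mt-Co1 and mt-Co2 hold its metal centres. For mt-Co1 the values were 15556, 17327 and 17588 CPM in wild type cells and 12938, 16475 and 17980 CPM in LAIR-1-deficient libraries, a log2 fold change of -0.09. For mt-Co2 they were 21115, 23147 and 22836 against 17539, 21237 and 23553 CPM, a log2 fold change of -0.11. For mt-Co3, the third core subunit, they were 5696, 6494 and 6284 against 5303, 5702 and 6440 CPM, a log2 fold change of -0.08. In mt-Co1 and mt-Co2, LAIR-1-deficient mouse 1 was the lowest of all libraries and LAIR-1-deficient mouse 3 the highest, so 1 group spanned the other. The summed complex IV level was 45348 ± 2585 CPM in wild type cells and 42389 ± 6161 CPM in LAIR-1-deficient libraries, 93.5% of wild type (SD, n = 3 each; exact permutation p = 0.7, 0.933 adjusted over 7 sums).

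Complex V is ATP synthase. Its channel subunit mt-Atp6 had 32395, 41113 and 41148 CPM in wild type cells and 33319, 37921 and 40499 CPM in LAIR-1-deficient libraries. Mouse 1 was low in both genotypes, and the log2 fold change was -0.04. The small subunit mt-Atp8, which helps tie the motor to its stator, had 965, 940 and 879 CPM in wild type cells and 690, 797 and 965 CPM in LAIR-1-deficient libraries, a log2 fold change of -0.18. Complex V summed to 39147 ± 5012 CPM in wild type cells and 38063 ± 3770 CPM in LAIR-1-deficient libraries, 97.2% of wild type (SD, n = 3 each; exact permutation p = 0.8).

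The rRNAs mt-Rnr1 and mt-Rnr2 build the small and the large subunit of the mitochondrial ribosome. The small subunit rRNA, mt-Rnr1, had 7585, 9292 and 16704 CPM in wild type cells and 6598, 12984 and 10425 CPM in LAIR-1-deficient libraries. Its lowest and highest libraries differed 2.53-fold, and the genotypes overlapped throughout. Its log2 fold change was -0.16 with a 95% interval from -1.35 to 1.03, which spans differences of either sign. The SD of its log2 CPM within groups was 0.55, the third most variable of the 126 tested genes of at least 1000 CPM. The large subunit rRNA, mt-Rnr2, had 20923, 21690 and 29199 CPM in wild type cells and 22795, 27399 and 20026 CPM in LAIR-1-deficient libraries, a log2 fold change of -0.03. The ratio of mt-Rnr1 to mt-Rnr2 per kilobase ranged from 0.479 in LAIR-1-deficient mouse 1 to 0.948 in wild type mouse 3. The rRNA sum was 35131 ± 9410 CPM in wild type cells and 33409 ± 6063 CPM in LAIR-1-deficient libraries, 95.1% of wild type (SD, n = 3 each; exact permutation p = 0.8).

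The libraries of a genotype differed from each other in ways that members shared. Mouse 1 was the lowest library of its genotype in both groups for 9 of the 13 messenger RNAs, the exceptions being mt-Nd2, mt-Atp8, mt-Nd5 and mt-Nd6. LAIR-1-deficient mouse 1 lay below the wild type range for 10 of the 13, mouse 2 for 6 and mouse 3 for 3. Another set, chosen after its values were seen, had its highest levels in mouse 3 of the wild type group and mouse 2 of the LAIR-1-deficient group: mt-Rnr1, mt-Rnr2, mt-Nd4l and mt-Nd5. These 4 were also the most variable within groups among the 13 members of at least 1000 CPM, at ranks 3, 11, 8 and 10 of the 126 abundant genes.

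Mouse 1 of both genotypes also stood apart in 25 immediate early genes, such as Fos, Jun and Egr1, which respond within minutes to handling or stimulation. Their summed level was 15040 CPM in mouse 1 of the wild type group and 18339 CPM in mouse 1 of the LAIR-1-deficient group, and between 6576 and 7595 CPM in the other libraries. Between genotypes 0 of the 21 tested passed in edgeR, 15 were above 0 and 6 below, with a median log2 fold change of 0.05. The part of these genes' level in the mitochondrial values was not tested. Without mouse 1 of both genotypes, a choice made after the values were seen, 0 members passed in edgeR and the median log2 fold change of the tested members was -0.11.

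**Figure D4:**
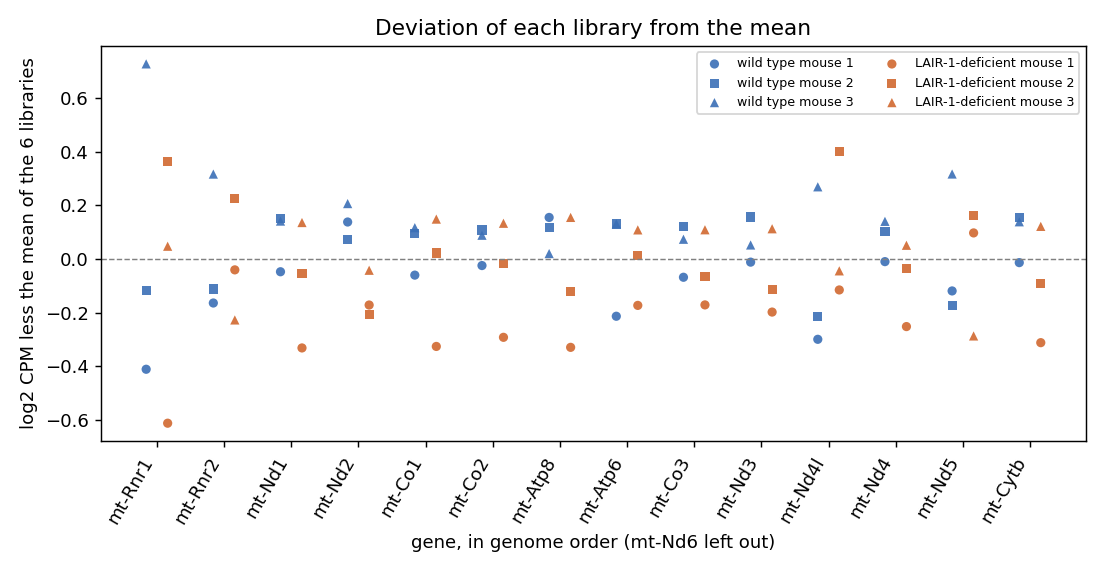
Each point is the log2 CPM of 1 library less the mean of the 6 libraries, for the rRNAs and messenger RNAs other than mt-Nd6 in genome order; blue is wild type, orange is LAIR-1-deficient, and circles, squares and triangles are mice 1, 2 and 3. Circles lie low for most genes in both colours, mt-Rnr1 spreads widest, and orange points lie wholly below blue points for mt-Nd2.

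The tRNAs carry amino acids to the mitochondrial ribosome, and their folded, modified and short RNAs were thinly covered here. They received 2191 counts in all 6 libraries together, and mt-Tm, mt-Tw and mt-Tt took 1734 of these (79.1%). As other tRNA genes do, they adjoin messenger RNA genes: mt-Tm and mt-Tw flank mt-Nd2, and mt-Tt follows mt-Cytb. Whether their counts came from tRNA or from the neighbouring messenger RNA was not tested. The methionine tRNA mt-Tm had 177, 203 and 164 counts in wild type cells and 151, 101 and 133 in LAIR-1-deficient libraries. In CPM that is 22.3, 22.2 and 18.4 against 21.7, 17.9 and 18.2, overlapping, with a log2 fold change of -0.12. The tryptophan tRNA mt-Tw had 54, 109 and 121 counts against 57, 86 and 117, or 6.80, 11.9 and 13.6 CPM against 8.21, 15.3 and 16.0 CPM, a log2 fold change of 0.28. In mt-Tw, mouse 1 was the lowest of both groups, and the log2 fold change was 0.043 without wild type mouse 1, against 0.53 with LAIR-1-deficient mouse 1 left out. The threonine tRNA mt-Tt had 57, 49 and 55 counts against 35, 27 and 38. Scaled for depth these were 7.18, 5.36 and 6.16 against 5.04, 4.80 and 5.19 CPM, which did not overlap. Its log2 fold change was -0.31 (SE 0.26, 95% interval -0.85 to 0.23) with an unadjusted p of 0.242 in edgeR.

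The other tested tRNAs were the leucine tRNA mt-Tl1 with a log2 fold change of 0.29, the valine tRNA mt-Tv with 0.32 and the glycine tRNA mt-Tg with -0.10. They had between 4 and 25 counts in a library, and the groups overlapped in each. The value of mt-Tv was 0.0082 without LAIR-1-deficient mouse 1 and 0.77 without LAIR-1-deficient mouse 3. The 16 untested tRNAs had at most 8 counts in any library. These were mt-Ta, mt-Tc, mt-Td, mt-Te, mt-Tf, mt-Th, mt-Ti, mt-Tk, mt-Tl2, mt-Tn, mt-Tp, mt-Tq, mt-Tr, mt-Ts1, mt-Ts2 and mt-Ty. Among them mt-Ty had 1 count, in LAIR-1-deficient mouse 1, and mt-Tl2 had 1 count, in wild type mouse 1. The lysine tRNA mt-Tk had 2, 1 and 2 counts in wild type cells and 0 in each LAIR-1-deficient library. A count of 0 allows up to 3 counts, which is 0.328 to 0.533 CPM at these depths, so a difference in mt-Tk was not detectable.

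All minus strand members were thinly counted, but so were many plus strand tRNA genes. The 14 plus strand tRNA genes received 2068 counts and the 8 minus strand genes 123, with at most 8 in a library. Of the plus strand counts, 1734 came from mt-Tm, mt-Tw and mt-Tt. Over all libraries the untested plus strand tRNAs had from 1 count (mt-Tl2) to 22 (mt-Ti). The minus strand tRNAs had from 1 (mt-Ty) to 24 (mt-Ta), so the sums do not show a lower count for each minus strand gene. All 9 minus strand members together, mt-Nd6 included, held 0.00619% of the mitochondrial counts. They summed to 13.7 ± 5.37 CPM in wild type cells and 9.41 ± 4.31 CPM in LAIR-1-deficient libraries, 68.5% of wild type (SD, n = 3 each; exact permutation p = 0.5). The tRNA sum was 47.8 ± 2.77 and 47.9 ± 2.66 CPM (SD, n = 3 each; exact permutation p = 1).

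**Figure D5:**
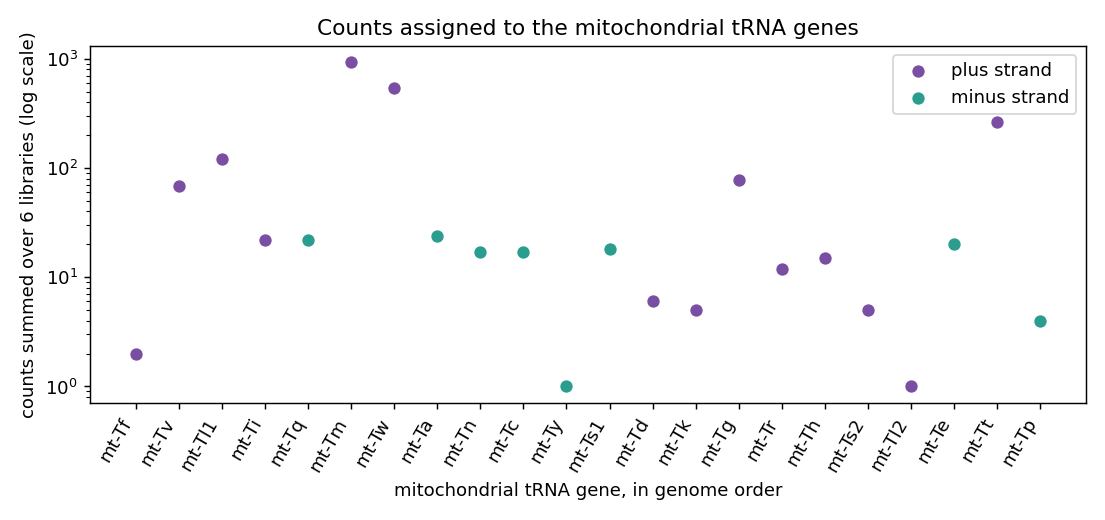
Each point is a mitochondrial tRNA gene in genome order, with its counts summed over the 6 libraries on a log axis, plus strand genes in purple and minus strand genes in green. Counts of mt-Tm, mt-Tw and mt-Tt together reach 1734 of 2191, and the minus strand genes together reach 123.

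The nuclear genes that maintain, process and translate these RNAs were read from the same fit. None of the lists below had a member that passed in edgeR, and each median stands beside 0.00059 over all genes tested. Among 16 tested genes of mitochondrial DNA replication and transcription, 7 fold changes were above 0 and 9 below, with a median of -0.12. Tfam, which packages mitochondrial DNA and starts its transcription, had 53.0, 63.8 and 56.9 CPM in wild type cells and 44.1, 48.3 and 51.7 CPM in LAIR-1-deficient libraries. These did not overlap, and the log2 fold change was -0.27 (SE 0.12, unadjusted p = 0.0384 in edgeR, adjusted p = 0.9999). Rnaseh1, which removes RNA primers, also did not overlap, with a log2 fold change of -0.43. Over all genes tested, 4.08% were lower without overlap. Among 37 genes of mitochondrial RNA processing, modification and decay, 17 were above 0 and 20 below, with a median of -0.03. The smallest unadjusted p values in this list were those of Rpusd4, a pseudouridine synthase, with a log2 fold change of -0.41, and of the gene listed as 1110008L16Rik (Prorp, the nuclease of mitochondrial RNase P), with -0.54. Rpusd4 was lower without overlap, beside 4.08% of all genes tested, and the groups overlapped for 1110008L16Rik.

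Translation showed divided directions. Of 23 mitochondrial tRNA synthetase and charging genes, 12 were above 0 and 11 below, with a median of 0.03. Fars2, the phenylalanine enzyme, had a log2 fold change of 0.59 and Vars2, the valine enzyme, 0.40. The groups overlapped for Fars2, and Vars2 was higher without overlap, beside 4.3% of all genes tested. Of 11 translation factors, 5 were above 0 and 6 below, with a median of -0.02. The elongation factor Gfm1 had a log2 fold change of 0.33 and the initiation factor Mtif2 -0.21.

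Nuclear subunits of the same complexes had medians close to that of all genes. For complex I, 15 of 35 tested were above 0 and 20 below, with a median of -0.03. Its accessory subunit Ndufb5 had 122, 138 and 138 CPM in wild type cells and 180, 157 and 169 CPM in LAIR-1-deficient libraries. That is higher without overlap, beside 4.3% of all genes tested. Ndufb5 and Ndufb7 are named for the smallest unadjusted p in this list, while most of the list lay below 0. The log2 fold change of Ndufb5 was 0.34 (SE 0.10, unadjusted p = 0.00272 in edgeR, adjusted p = 0.9999). Ndufb7 had a log2 fold change of 0.32, also without overlap. For complex III, 4 of 9 were above 0 and 5 below, with a median of -0.02, Uqcrh at 0.13 and Uqcr11 at -0.16. Uqcrh was also higher without overlap, and the groups overlapped for Uqcr11. For complex IV, 8 of 12 were above 0 and 4 below, with a median of 0.02, Cox7c at -0.25 and Cox4i1 at 0.18. For complex V, 6 of 16 were above 0 and 10 below, with a median of -0.04, Atp5g3 at -0.16 and Atp5e at -0.10. Whether mitochondrial and nuclear subunits differ from each other in their change was not tested.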

How the data were processed

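The authors deposited raw counts by gene, 1 column per library, made with BWA on mm10 per the submitters' processing notes. Not given in the sources used here are the annotation, the counter, the strand setting and whether molecular identifiers were used. Columns were matched to samples by description, 0 columns were unused, and 4 spike-in rows (0 to 4 counts a library) were left out. All 14515 gene rows entered 1 fit in edgeR 4.0.16 (R 4.3.3): filterByExpr with a smallest count of 10, TMM scaling and a two-sided robust quasi-likelihood F test, adjusted by Benjamini-Hochberg over 9565 genes with a threshold of 0.05. The labels call the samples separate mice. Shares and summed CPM were compared by exact permutation tests over mice (scipy 1.17.1). DESeq2 1.42.0 and limma 3.58.1 gave alternatives. Nuclear copies were sought with blastn 2.17.0. The fit was tested on simulated data. All members are accounted for. Of each nuclear list and of the immediate early genes, the 2 tested genes with the smallest unadjusted p are named; for the immediate early genes these were Myc, with a log2 fold change of 0.15, and Ier3, with -0.32. Fos, Jun and Egr1 are named as examples only. The lists were chosen with earlier results of these data known. The members were also taken up with those results known, though position alone decides which rows they are.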

Additional observations from a re-analysis of the deposited data

How the results depend on the processing

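Other scalings, filters and tools (RLE size factors, library totals alone, library sizes without the mitochondrial chromosome, no filter, a smallest count of 30, DESeq2 and limma-voom) called 0 members, as did every fit that left out a mouse. The median log2 fold change of tested members stayed between -0.20 and -0.04. The lowest adjusted p of any member was 0.369, for mt-Nd2 with no filter in edgeR. In that fit 3 members were lower at an unadjusted p under 0.05, beside 3.91% of all genes in either direction. Over all genes, 3 passed with no filter, 0 with the smallest count of 30, 0 without mouse 1 of both groups, and 0 to 2 when single mice were left out; the cause was not tested. Of 312 alternative fold changes of members, 15 reversed, in 8 members. Leaving out single mice gave -0.143 to 0.0328 for mt-Atp6, -0.195 to 0.0301 for mt-Co1, -0.0206 to 0.353 for mt-Nd4l, -0.11 to 0.15 for mt-Nd5, -0.40 to 0.24 for mt-Rnr1, -0.16 to 0.13 for mt-Rnr2, -0.34 to 0.12 for mt-Tg and -0.0687 to 0.512 for mt-Tl1. Members that did not reverse ranged from -1.34 to -0.42 for mt-Nd6, -0.41 to -0.20 for mt-Tt, -0.32 to -0.079 for mt-Atp8, -0.33 to -0.25 for mt-Nd2, -0.29 to -0.081 for mt-Cytb, -0.27 to -0.044 for mt-Nd1, -0.22 to -0.075 for mt-Nd4, -0.22 to -0.068 for mt-Nd3, -0.21 to -0.0022 for mt-Co2, -0.16 to -0.025 for mt-Co3, -0.22 to -0.071 for mt-Tm, 0.0082 to 0.77 for mt-Tv and 0.043 to 0.53 for mt-Tw. Without mouse 1 of both groups mt-Tg was at 0.0638. The difference in rRNA share was 0.606 points as a percent of mitochondrial counts, and -0.524 to 0.396 without single mice; that in tRNA share was -0.000145 to 0.000154.

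No label says that mouse numbers mark a shared litter, batch or day. Deviations of same-numbered mice correlated at 0.290, 0.0094 and 0.065, and not every library correlated best with its own number. With the replicate number as a block, 1 gene and 0 members were called, and the median over members was -0.12. In that edgeR fit 3 members were lower at an unadjusted p under 0.05, beside 4.69% of all genes in either direction. For the mitochondrial share the exact paired permutation p was 0.25, the smallest 3 pairs can give, at the same difference of -1.22 points. Depth limits the tRNAs and mt-Nd6, whose counts ranged from 0 to 203 in a library.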
